A study of Mus musculus with 16 samples.

Results

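Probes for intergenic noncoding RNA intervals made up 16181 of the 55681 non-control probes on the array (29.1%). Each of these probes is named in the scanner files by a genomic interval of mouse build mm9 and a letter, F or R, and not by a transcript or a gene. They were chosen by that name alone, without any measured value. The other 39500 probes served for comparison, among them 27438 probes for RefSeq coding transcripts and 2348 for RefSeq noncoding transcripts. The letters are read here as the forward and reverse strand, which the files do not define, and how the intervals were picked for the array is not given in the sources used here.

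The study asked what the protein Klotho does to gene expression in cultured brain cells. Primary cortical neurons of C57BL/6 mice, taken at embryonic day 16 and kept 14 days in vitro, and primary cortical astrocytes of C57BL/6 mice each received 1 nM recombinant secreted Klotho or 1xPBS, the vehicle, for 24 h. Each of the 4 groups had 4 arrays. The protocol takes astrocytes from pups at postnatal days 0 to 5 and purifies them by shaking the flasks, while a label of the same samples gives embryonic day 16. Both cell types are mixed primary cultures and not sorted cells, no group carries a genetic change, and the labels do not say whether the samples of a group are separate cultures. Every p-value here therefore measures the spread among the deposited samples, and that spread may be technical. Klotho is a membrane protein whose shed form circulates and occurs in cerebrospinal fluid, and it is a co-receptor for a hormone of the fibroblast growth factor family.

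Intergenic long noncoding RNAs are transcripts without a long open reading frame whose genes lie between protein-coding genes. Many are spliced and polyadenylated like messenger RNAs, and as a class they are less abundant and more restricted to a cell type than coding transcripts, with many expressed in brain. An interval names a stretch of genome and not a transcript structure, so probes on the opposite strands of an interval can report different transcripts, and probes on the same strand can report a single transcript or several.

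The 3 slides of the experiment set limits on what can be compared. All neuron arrays lay on slide 1, with PBS in array row 1 and Klotho in array row 2, so in neurons the treatment cannot be told apart from the array row. By the scanner files, the PBS astrocytes lay on slide 2 and the Klotho astrocytes on slide 3, replicates 1 and 2 in row 1 and replicates 3 and 4 in row 2 of each, so neither the cell type nor, within astrocytes, the treatment can be told apart from the slide. In the deposited value table, 6 of the 8 astrocyte columns equal the array of another sample, and 4 of these an array of the other treatment. The rows of the arrays are not affected by this, and the scanner files were followed. Of 10 neuron markers, 9 were lower in PBS astrocytes than in PBS neurons, and Nefl and Slc17a7 were not well above background on any astrocyte array. However, 7 of the 10 were well above background on all 4 PBS astrocyte arrays, and 8 on all 4 Klotho astrocyte arrays. Of 10 astrocyte markers, 8 were higher in the astrocytes, and all 10 were well above background on every neuron array.

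The 16181 probes tiled 3540 intervals on 20 chromosomes, 1 to 19 and X. Probes on both strands were present for 1067 intervals and held 9682 of the probes, while 1251 intervals had F probes alone and 1222 had R probes alone. An interval carried 1 to 20 probes with a median of 3. The usual layouts were 3 probes on a single strand, in 1595 intervals, and 5 F with 5 R probes, in 327 intervals. Lengths ran from 62 to 7128487 bases with a median of 7315.5 bases, and the intervals probed on both strands were longer (median 17901 bases) than those probed on 1 strand (2176 bases). Of 4607 strand-specific intervals, 2104 (45.7%) overlapped another interval on their own strand, so neighbouring names can refer to the same transcript and counts of intervals are not counts of independent loci. Every interval probe had 1 spot, no spot was saturated on any array, and the correlation between arrays of a group over the interval probes was between 0.8995 and 0.9761.

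Interval probes were detected less often than the other probes in every group. A probe was counted as detected when the scanner software marked its spot as well above background on all 4 arrays of a group. By this rule 7056 interval probes (43.6%) were detected in PBS neurons, 5460 (33.7%) in Klotho neurons, 6006 (37.1%) in PBS astrocytes and 5271 (32.6%) in Klotho astrocytes. The other probes were detected in 68.3%, 62.2%, 64.9% and 62.9% in the same order. RefSeq noncoding probes stood at 47.4%, 39.35%, 43.7% and 40.4%, nearer to the interval probes than RefSeq coding probes, at 74.96%, 69.55%, 72.02% and 70.6%. In all 4 groups 4401 interval probes (27.2%) were detected, against 56.7% of the other probes, and 4559 (28.2%) were well above background on none of the 16 arrays, against 15.05% of the others. Only a bound is known for a spot that is not well above background, so these shares do not say that the RNA was absent.

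**Figure D1:**
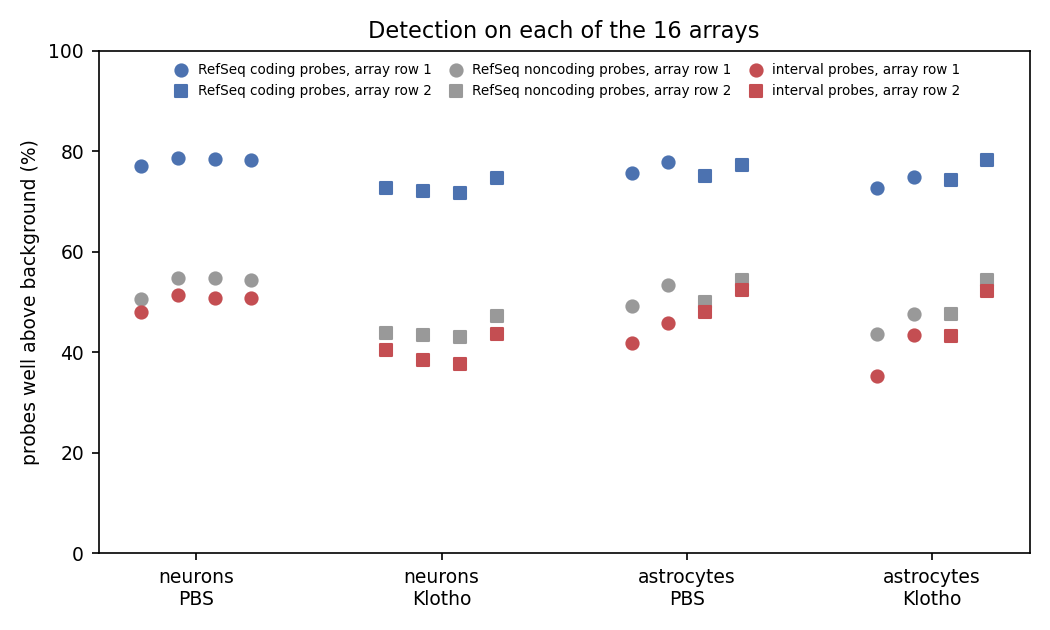
Share of probes well above background on each of the 16 arrays, in percent, for RefSeq coding, RefSeq noncoding and interval probes, with circles for array row 1 and squares for array row 2. The interval probes lie lowest on every array, between 35.2% and 52.3%, and the 4 Klotho neuron arrays lie below the 4 PBS neuron arrays.

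The single arrays show how much of this varied within a group. In PBS neurons 48.0%, 51.35%, 50.75% and 50.8% of the interval probes were well above background on replicates 1 to 4, and in Klotho neurons 40.4%, 38.35%, 37.7% and 43.6%. The neuron groups did not overlap in this share, for interval probes or for the other classes in the plot of detection by array, and Klotho and array row coincide there. In PBS astrocytes the shares were 41.8%, 45.9%, 47.9% and 52.3%, and in Klotho astrocytes 35.2%, 43.4%, 43.3% and 52.15%. These astrocyte groups overlapped, and in each of the 4 pairs of arrays with the same number the Klotho array had the lower share. Detection that was restricted to a cell type was rare: 88 interval probes were detected in both neuron groups and on no astrocyte array, and 112 in both astrocyte groups and on no neuron array, which is 0.544% and 0.692% of the interval probes, against 1.21% and 1.18% of the other probes.

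R probes were detected somewhat more often than F probes in each group, in 45.3% against 41.9% of cases in PBS neurons, 35.6% against 31.9% in Klotho neurons, 39.5% against 34.7% in PBS astrocytes and 34.7% against 30.5% in Klotho astrocytes. The same order held on all 16 arrays. Of the 1067 intervals with probes on both strands, 616 had a detected probe on both strands in PBS neurons, 169 on F alone, 187 on R alone and 95 on neither. In PBS astrocytes the same counts were 496, 187, 241 and 143. With Klotho they were 447, 211, 238 and 171 in neurons and 425, 199, 249 and 194 in astrocytes. Signal from both strands was thus the most frequent of these 4 outcomes in each group, where 1 detected probe per strand sufficed. With F alone and R alone counted as a single outcome, that outcome was the more frequent in both Klotho groups, but not in the PBS groups. Among the 327 intervals with 5 F and 5 R probes, few had at least 4 probes detected on both strands. These were 8 in PBS neurons, 4 in Klotho neurons, 3 in PBS astrocytes and 1 in Klotho astrocytes.

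Where an interval was detected on 1 strand alone, the strand was nearly always the same in both cell types. Among the 280 intervals detected on 1 strand in PBS neurons and on 1 strand in PBS astrocytes, the strand was the same in 274. With Klotho this held for 343 of 348 intervals. Between PBS and Klotho it held for 296 of 296 intervals in neurons and 356 of 359 in astrocytes. The probes of an interval were detected less uniformly. Among the 1595 intervals with 3 probes on a single strand, PBS neurons had 436 with all 3 detected, 216 with 2, 394 with 1 and 549 with none, and PBS astrocytes had 366, 193, 351 and 685. Among the 327 intervals with 5 F and 5 R probes, all 5 of a strand and none of the other were detected in 21 intervals in PBS neurons and 33 in PBS astrocytes.

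Interval probes differed widely between astrocytes and neurons, in both directions and more often downward. In the PBS arrays, 1220 of 7591 interval probes tested were higher in astrocytes (16.1%) and 1966 were lower (25.9%), at a limma p adjusted over all probes tested of under 0.05. Over all 36063 probes tested, 21.8% were called higher and 30.3% lower. In the Klotho arrays, which share no array with the first comparison, 1481 of 6231 interval probes were higher (23.8%) and 2131 lower (34.2%), where over all 33068 probes tested 27.6% were called higher and 36.0% lower. The median change of the interval probes was -0.21 in both comparisons on the log2 scale, and that of the other probes was -0.23 in PBS and -0.18 in Klotho. Tested probes are those detected in at least 1 of the groups compared. A probe detected in 1 cell type alone tends to enter through the cell type where it is brighter. A common direction among such probes is therefore no separate support. A culture with fewer cells of a type and cells with less of an RNA cannot be told apart in bulk RNA.

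In the PBS arrays the lower share of calls among interval probes was seen at every level of signal. When the tested interval probes were cut into 4 classes of equal number by their mean log2 intensity, 15.65%, 13.65%, 17.7% and 17.3% of them were called higher in PBS astrocytes from the dimmest to the brightest class, and of the other probes in the same ranges 26.4%, 25.9%, 28.5% and 21.2%. Called lower were 33.2%, 22.3%, 23.0% and 25.03% of the interval probes, and 40.9%, 27.6%, 27.5% and 31.5% of the other probes. The interval probes also had the lower share in each class in the Klotho arrays, except for lower calls in the dimmest class, at 42.04% against 41.2%. The median standard error of a change was 0.348 for interval probes and 0.298 for the other probes.

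Most calls of the PBS comparison were made again in the Klotho comparison, and a smaller share of them among interval probes than among the other probes. Of the interval probes, 932 were higher in astrocytes in both, which is 76.4% of the 1220 in PBS and 62.9% of the 1481 in Klotho, and 1449 were lower in both, which is 73.7% and 68.0%. For the other probes these shares were 88.5% and 77.0% for higher and 85.9% and 78.8% for lower. No interval probe was called in opposite directions. Over the 6176 interval probes tested in both, the changes correlated with r = 0.954 across probes, and 88.3% had the same sign, against r = 0.974 and 91.1% for the other probes. This difference between the classes was not tested. Probes are not independent replicates, and both comparisons set slide 1 against other slides. The balance between higher and lower depended on the astrocyte arrays used: with the row 1 arrays alone, 1304 interval probes were higher and 3790 lower in PBS astrocytes (median change -0.61), and with the row 2 arrays alone 3389 were higher and 1844 lower (median change 0.38). Over all probes tested the same fits gave 10139 higher and 14959 lower with row 1 and 12341 and 13434 with row 2. In the Klotho arrays the counts were 1247 and 2148 with row 1 alone and 2509 and 2258 with row 2 alone, against 8877 and 10865 and then 11094 and 13286 over all probes.

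**Figure D2:**
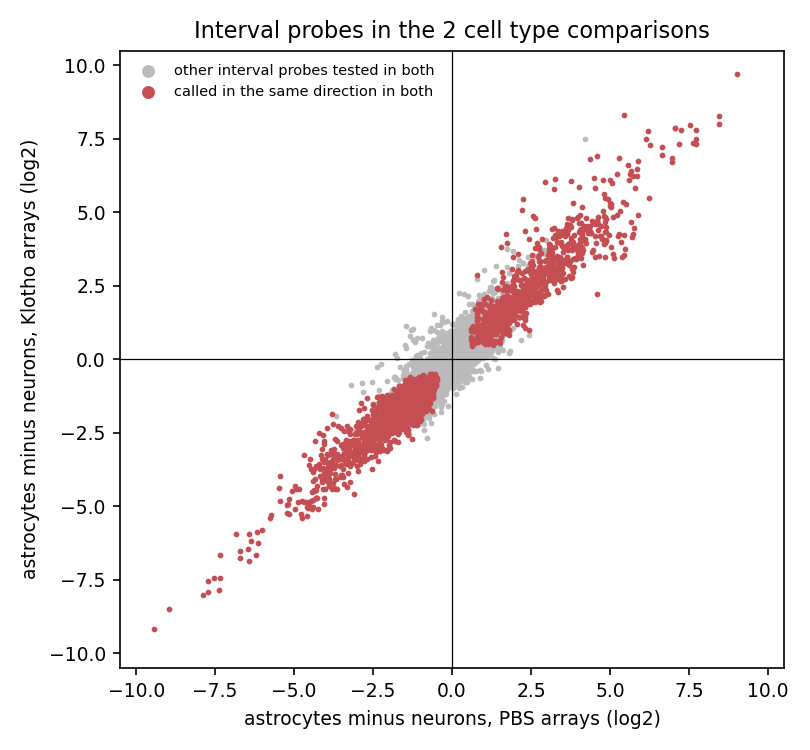
Change of each interval probe tested in both comparisons, as the mean of 4 astrocyte arrays minus the mean of 4 neuron arrays on the log2 scale, with PBS arrays on the x axis and Klotho arrays on the y axis. Red points are the 932 probes called higher and the 1449 called lower in both, and the cloud follows the diagonal at r = 0.954.

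Other cell types moved along with this comparison. All 8 microglia markers were higher in PBS astrocytes than in PBS neurons, and their mean level ran from -3.93 to -2.69 over the PBS neuron arrays and from 2.39 to 3.07 over the PBS astrocyte arrays (log2 intensity after centring each array on its 75th percentile, the scale of all levels given here). All 8 were well above background on all PBS astrocyte arrays. Of 6 fibroblast and meninges markers, 4 were higher and 2 lower in the astrocytes, with mean levels from -2.33 to -1.59 over the PBS neuron arrays and from -0.50 to 0.08 over the PBS astrocyte arrays. Of 9 oligodendrocyte lineage markers, 6 were lower in the astrocytes, and the 2 of 5 endothelial markers that were tested were not called. The part of these cells in the interval results was not tested.

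The largest rise among interval probes well above background on all 8 PBS arrays was in chr8:93337794-93348869 on the R strand. Probe A_30_P01026656 read -5.19, -3.67, -3.95 and -4.21 in PBS neurons and 4.70, 4.66, 3.75 and 3.70 in PBS astrocytes. With Klotho it read -4.80, -4.00, -4.05 and -3.82 in neurons and 4.42, 3.77, 4.05 and 3.15 in astrocytes. The cell types lay far apart on every array, and the treatments overlapped within each cell type. The change was 8.46 (SE 0.387, limma adjusted p = 3.91e-07) in PBS and 8.02 (SE 0.310, limma adjusted p = 2.83e-08) in Klotho. All 3 R probes of the interval were higher in astrocytes in both comparisons, by 7.62 to 8.46 in PBS, and on the F strand 2 of 3 probes were called higher in PBS.

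A group of neighbouring intervals on chromosome 1 was higher in astrocytes on the R strand. In chr1:175654606-175672031 all 5 R probes were called higher in PBS astrocytes, with fitted changes of 4.53 to 7.72, while none of the 5 F probes was detected in any group. For a probe that is not well above background in the dimmer group the size of a fitted change is uncertain and only its direction and a bound are firm, and this holds for 4 of these 5 R probes. The probe A_30_P01031526 was not well above background on any neuron array and read 0.86, 0.99, -0.25 and 0.21 in PBS astrocytes and 0.78, 2.49, 0.11 and 2.18 in Klotho astrocytes. Against neurons it was at least 107.8-fold higher in PBS and at least 119.9-fold higher in Klotho (limma adjusted p = 7.08e-07 and 1.37e-06). Such a bound sets the mean of the bright group against, per array of the dim group, the higher of the probe's own value and the lowest signal among probes well above background. The 3 R probes of the overlapping interval chr1:175653557-175671940 were also all higher. None of them was detected in PBS neurons, so they entered the PBS test through the astrocytes alone. The 5 R probes of chr1:175705225-175717250 were all higher too, with fitted changes of 2.22 to 7.05 and 2 of the 5 detected in PBS neurons. On the F strand of the latter, 1 probe of 5 was tested, and it was called higher.

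The largest bound of all interval probes belonged to chr7:111526943-111545093 on the R strand, which holds 1 R probe, A_30_P01024661. It was not well above background on any neuron array and read 2.24, 2.29, 1.58 and 1.5 in PBS astrocytes and 2.80, 3.97, 1.67 and 3.08 in Klotho astrocytes. It was at least 290.5-fold higher in astrocytes in PBS and at least 337.2-fold higher in Klotho (limma adjusted p = 9.71e-07 and 6.97e-08). On the F strand of this interval 3 of 5 probes were detected in each group, and 1 of the 3 was called lower in PBS astrocytes, with a change of -0.96.

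Some of the intervals higher in astrocytes were uneven within the astrocyte groups. In chr19:5834117-5835940, probe A_30_P01025818 on the R strand read -5.35, -5.14, -5.60 and -4.99 in PBS neurons, -0.99, -1.18, 2.72 and 3.13 in PBS astrocytes, and 0.81, 3.45, 1.34 and 3.33 in Klotho astrocytes. The PBS astrocyte arrays split by array row, with row 2 higher, whereas the higher pair among the Klotho astrocyte arrays was replicates 2 and 4. The change was 6.19 (SE 0.976, limma adjusted p = 0.000676) in PBS and 7.77 (SE 0.610) in Klotho, and all 3 R probes of the interval were higher in both. The row difference of this probe, 2.11, was not called (limma adjusted p = 0.0855). Probes A_30_P01019747 in chr19:4209657-4210475 on the R strand (5.50, SE 0.443) and A_30_P01020970 in chr10:92238941-92283837 on the R strand (5.11, SE 0.327) were higher in astrocytes and also differed between the rows, by 1.505 and 0.99. Both probes on the F strand of chr6:57583950-57624216 were higher in PBS astrocytes, by 5.00 and 5.24, and 3 of its 4 R probes were tested and were all higher, with fitted changes of 1.68 to 1.91 and 1 of them detected in PBS neurons.

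**Figure D3:**
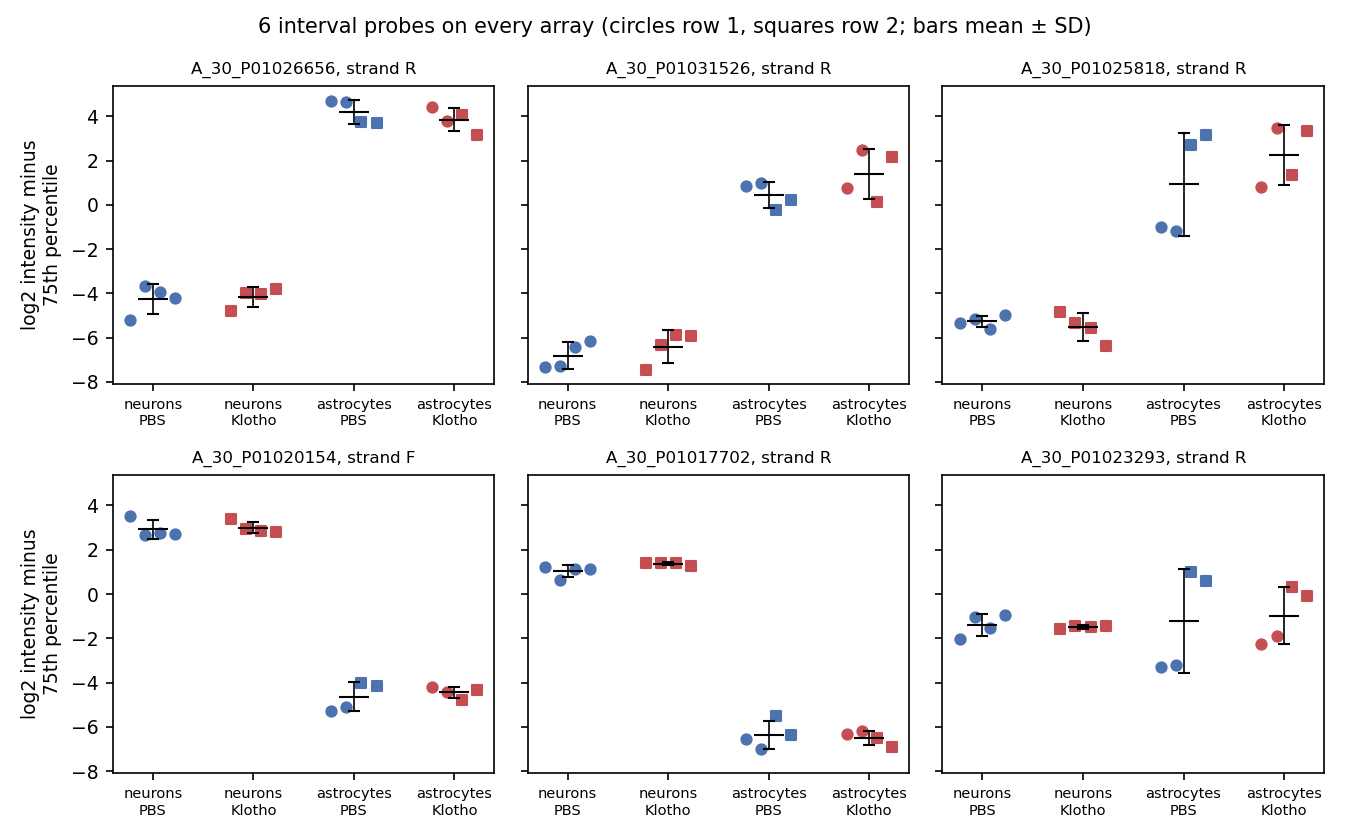
Level of 6 interval probes on every array, as log2 intensity minus the 75th percentile of the array, with circles for array row 1, squares for row 2 and bars for the mean ± SD of 4 arrays. The probe A_30_P01020154 lies between 2.66 and 3.54 in the neuron arrays and between -5.28 and -4.02 in the astrocyte arrays, and A_30_P01023293 splits the astrocytes by row.

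Among intervals lower in astrocytes, chr9:51905865-51911474 on the F strand had the largest changes. Probe A_30_P01020154 read 3.54, 2.66, 2.75 and 2.73 in PBS neurons and -5.28, -5.08, -4.02 and -4.13 in PBS astrocytes. In the Klotho arrays it read 3.38, 2.96, 2.86 and 2.80 in neurons and -4.19, -4.43, -4.78 and -4.35 in astrocytes. The groups of the cell types did not come near each other, and the change was -7.55 (SE 0.353, limma adjusted p = 4.35e-07) in PBS and -7.44 (SE 0.206) in Klotho. All 3 F probes were lower in astrocytes. Of these, A_30_P01031871 was not well above background on any astrocyte array and was at least 235.1-fold lower there in PBS and at least 209.3-fold lower in Klotho. On the R strand of the interval 1 of 5 probes was tested, and its change of 0.34 was not called.

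The overlapping intervals chr8:89996710-90049453 and chr8:90048940-90049461 were lower in astrocytes with all 3 F probes of each, with fitted changes of -6.38 to -4.86 and -7.34 to -6.01. In PBS astrocytes 2 of the 3 and 1 of the 3 were detected. Probe A_30_P01024770 of the longer interval read 1.73, 1.82, 1.98 and 1.93 in PBS neurons and -4.83, -4.70, -4.60 and -3.91 in PBS astrocytes. In chr16:17833211-17835112 the 3 F probes were detected in neurons alone, and A_30_P01017503, at 0.98, 0.52, 0.47 and 0.42 in PBS neurons, was at least 114.1-fold lower in PBS astrocytes and at least 81.85-fold lower in Klotho astrocytes. In chr6:11994002-11997859 the 3 F probes were lower, with changes of -4.59 to -4.44. All 3 of these were detected in PBS astrocytes as well.

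Both strands of chr2:94082835-94101939 were lower in astrocytes. Its 5 R probes were lower, with fitted changes of -7.73 to -3.71, and 1 of them was detected in PBS astrocytes. On the F strand 3 of 5 probes were tested, and all 3 were lower and not detected in PBS astrocytes. These F probes entered the PBS test through the neurons alone, so their common direction is no separate support. The R probe A_30_P01017702 read 1.24, 0.62, 1.11 and 1.13 in PBS neurons and 1.41, 1.39, 1.41 and 1.26 in Klotho neurons, and it was not well above background on any astrocyte array. The bound was at least 145.0-fold lower in PBS and at least 146.1-fold lower in Klotho.

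The probe with the highest mean log2 intensity in each of the 4 groups was A_30_P01031754, in chr19:5801802-5802597 on the R strand. It read 7.85, 7.52, 7.70 and 7.83 in PBS neurons, 7.86, 7.67, 7.46 and 7.56 in Klotho neurons, 7.80, 7.54, 8.55 and 8.62 in PBS astrocytes and 7.42, 8.24, 8.27 and 8.32 in Klotho astrocytes. Its change of 0.40 in PBS and 0.42 in Klotho was not called. A_30_P01026458, in chr11:22681800-22707775 on the R strand, had the next highest mean in both neuron groups and was lower in astrocytes, with a change of -1.002 in PBS and -0.71 in Klotho. A probe's intensity depends on its sequence as well as on its RNA, so this order ranks signals and not amounts of RNA.

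In the PBS comparison of the cell types, most intervals had changes of a common sign among their tested probes on the same strand. Among 1976 strand-specific intervals with at least 2 tested probes, all changes between PBS astrocytes and PBS neurons had the same sign in 1363 (69.0%). The SD of the change among the probes of such an interval had a median of 0.384, against an SD of 1.59 over all interval probes. For Klotho, where no interval probe was called, the share with a common sign was 63.6% in astrocytes and 46.0% in neurons. In the PBS comparison of the cell types, calls in both directions on the same strand occurred in 64 of 1214 strand-specific intervals that held a call. Over the 650 intervals tested on both strands, the median changes of the strands had the same sign in 393 (60.5%), correlated with r = 0.203 across intervals, and differed by a median of 0.845. The strands of an interval share their arrays, and overlapping intervals share transcripts, so this correlation is a description.

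Of these 650 intervals, 23 had calls upward alone on both strands, 101 had calls downward alone on both strands, and 52 had calls in opposite directions, with F lower and R higher in 34 and F higher and R lower in 18. A call on a single strand was higher in 95 intervals and lower in 194, and 143 had no call. In the Klotho arrays 63 of 506 intervals had opposite calls. The overlap was 25 intervals, which is 48.1% of the 52 and 39.7% of the 63, and all 25 had the same orientation in both. With the astrocyte arrays of row 1 alone the PBS count was 92, with row 2 alone 113, and among probes well above background on all 8 arrays 33.

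**Figure D4:**
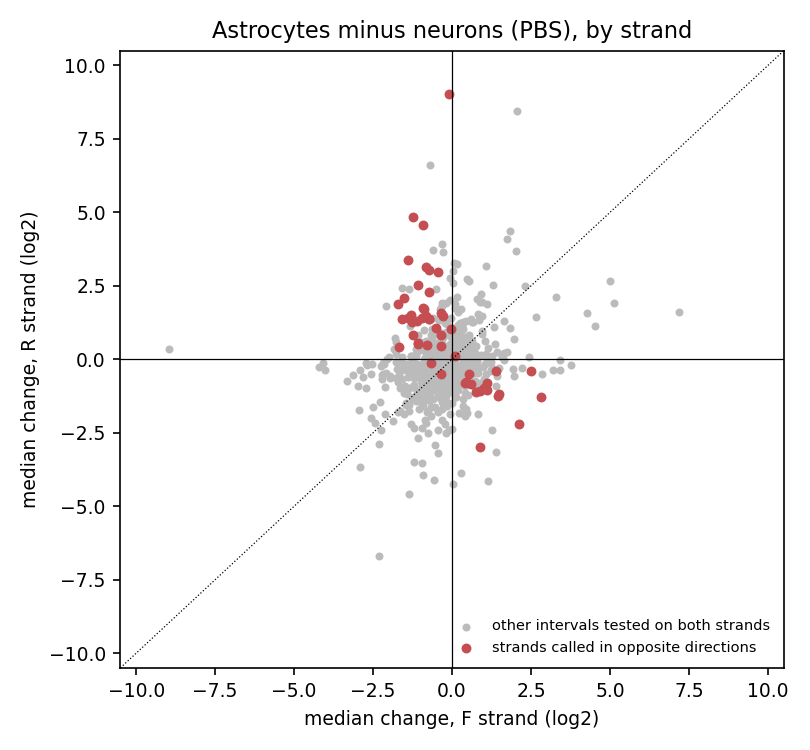
Median change of the F probes (x axis) and of the R probes (y axis) for the 650 intervals tested on both strands, as PBS astrocytes minus PBS neurons on the log2 scale, with the 52 intervals called in opposite directions in red. The points do not follow the dotted diagonal (r = 0.203), and 34 of the 52 red intervals were called lower on F and higher on R.

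The intervals with opposite strands included several with many probes. In chr6:129151512-129208737, 9 of 10 R probes were tested and all 9 were higher in PBS astrocytes, with fitted changes of 0.65 to 5.36 and 3 of them detected in PBS neurons, and both F probes tested were lower. Its R probe A_30_P01028297 read -8.15, -8.48, -8.38 and -8.25 in PBS neurons, where it was not well above background, and -3.04, -2.96, -2.88 and -2.93 in PBS astrocytes, at least 10.2-fold higher. In chr7:99879368-99889978, 9 of 10 R probes were higher, with a median change of 2.51, and 2 of 6 tested F probes were lower. Its F probe A_30_P01027558 read -3.01, -3.59, -3.25 and -3.47 in PBS neurons and -5.16, -5.01, -4.97 and -4.20 in PBS astrocytes, a change of -1.505 (SE 0.261, limma adjusted p = 0.00119). Its R probe A_30_P01022033 read -4.31, -4.39, -5.09 and -4.62 in PBS neurons and -2.63, -2.72, -0.88 and -1.05 in PBS astrocytes, a change of 2.79 (SE 0.460, limma adjusted p = 0.000897). The PBS groups overlapped for neither probe. With Klotho all 10 R probes were higher, while of 4 tested F probes 1 was higher and 1 lower, so the F strand had no common direction there.

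The reverse orientation, F higher and R lower, was seen in chr15:12119755-12127230 and chr14:28231577-28242027. In the first, the F probe A_30_P01023008 was higher by 2.12 (SE 0.269) and the R probe A_30_P01027131 was lower, at a fitted change of -3.36 (SE 0.586) with 1 of 4 PBS astrocyte arrays well above background. In the Klotho arrays both were called in the same directions, at 2.21 (SE 0.572) for the F probe and -3.54 for the R probe. In the second, all 4 tested R probes were lower in PBS astrocytes, with changes of -1.97 to -0.70, and again in Klotho astrocytes, while the F probe A_30_P01032266 was higher by 1.83 in PBS and not called in Klotho, at 0.28. In chr7:129294166-129301366 the 3 R probes were higher in PBS astrocytes, with 1 of them detected in PBS neurons, and both tested F probes were lower, with neither detected in PBS astrocytes. Both F probes thus entered the PBS test through the neurons alone.

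No interval probe changed with Klotho in neurons by the test used. Of 7068 interval probes tested, 0 were higher and 0 were lower in Klotho neurons at a limma adjusted p of under 0.05, and the smallest adjusted p was 0.208. Over all 34073 probes tested, 0.0% were called higher and 0.12% lower, which is 41 probes. At an unadjusted p of under 0.05 there were 344 interval probes, or 4.87%, against 4.05% over all probes tested. The count of interval probes was 960 with the replicate number as a block, 1255 without PBS replicate 1 and 600 without Klotho replicate 1. The median change was 0.02. The smallest adjusted p belonged to A_30_P01032111, in chr1:137482591-137625604 on the F strand, which read -5.59, -6.50, -6.05 and -6.15 in PBS neurons and -4.93, -4.61, -4.80 and -3.85 in Klotho neurons. These groups did not overlap, 2 of the 4 PBS arrays were well above background, and the change was 1.53 (SE 0.269). Leaving out PBS replicate 1 gave 2 lower calls and PBS replicate 4 gave 1, Klotho replicate 2 gave 1 in each direction, and Klotho replicate 4 gave 2 higher calls. Over all probes the same fits gave 35 and 23 lower, then 2 higher and 28 lower, and then 3 higher and 30 lower. Neuron arrays of the same replicate number deviated together and also shared an array column, and the labels do not say that they shared a culture. With the number as a block 1 interval probe was lower, and 25 were over all probes. With no filter on dim probes, 3064 of 16181 interval probes were called higher and 68 lower, and over all 55681 probes 7501 were higher and 260 lower. The detection of interval probes was lower on the Klotho neuron arrays, as given above, and its part in that count was not tested. Among probes that the filter left out, A_30_P01018423 read -8.55 to -8.24 in PBS neurons and -7.76 to -7.25 in Klotho neurons. For A_30_P01025428 the ranges were -7.04 to -6.14 and -7.43 to -5.32. The part of such readings below background in the unfiltered count was not tested either.

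The same held for Klotho in astrocytes. Of 6189 interval probes tested, 0 were higher and 0 lower by limma, 202 had an unadjusted p of under 0.05 (3.26%, against 3.54% over all probes), and the median change was -0.06. The count at an unadjusted p of under 0.05 was 581 with the replicate number as a block, 651 with the array row as a block, 89 without Klotho replicate 2 and 365 without Klotho replicate 3. The median change had no firm sign, at -0.21 to 0.06 when an array was left out. Over all 32155 probes tested, 0.0% were called higher and 0.0% lower. Without Klotho replicate 3, 1 interval probe was called higher, and over all probes 17 were called higher and 1 lower. Both R probes of chr6:3283191-3284581 were among those with the smallest p for a rise. Probe A_30_P01019832 read -1.67, -1.73, -1.14 and -1.41 in PBS astrocytes and -0.50, 1.53, -1.0 and 0.63 in Klotho astrocytes. The groups did not overlap, with Klotho replicates 2 and 4 as the higher pair, and the change of 1.65 (SE 0.511) was not called. In the deposited value table the arrays of replicates 2 and 4 of both groups stand under Klotho samples and those of replicates 1 and 3 under PBS samples. Among the arrays of PBS astrocytes, replicates 2 and 4 read -1.73 and -1.41, and replicates 1 and 3 read -1.67 and -1.14. With the assignment of that table, 0 of 6219 interval probes were called and 0 over all probes. There, 123 interval probes had an unadjusted p of under 0.05. The median standard error in this comparison was 0.378 for interval probes, against 0.192 for Klotho in neurons, so a change of a given size was measured less precisely in astrocytes.

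No interval probe passed the test for a Klotho difference that differs between the cell types. In the fit over all 16 arrays, 0 of 7646 interval probes were called for the interaction of Klotho and cell type, where over all 36235 probes tested 0.0745% were called with the astrocyte change higher and 0.00552% with it lower. At an unadjusted p of under 0.05 there were 296 interval probes (3.87%, against 4.85% over all probes). The smallest limma adjusted p of an interval probe was 0.0641. It belonged to A_30_P01020576, in chr2:155269145-155303251 on the F strand, which read -5.11, -5.20, -5.56 and -5.05 in PBS neurons, -4.98, -5.53, -5.25 and -5.27 in Klotho neurons, -5.56, -5.33, -5.37 and -5.18 in PBS astrocytes, and -7.32, -6.48, -7.65 and -7.36 in Klotho astrocytes. The Klotho astrocyte arrays stood apart, none of them well above background, and the other 3 groups overlapped. The difference of the changes was -1.81 (SE 0.326).

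Many interval probes were higher on the astrocyte arrays of row 2 than on those of row 1. Row is the position of an array on its slide. Each row held 2 arrays of slide 2 and 2 of slide 3, and the slide was a covariate. Of 6699 interval probes tested, 2936 were higher in row 2 (43.8%) and 514 lower (7.67%), with a median change of 0.65. Over all 33036 probes tested, 24.1% were called higher and 23.9% lower, and for the other probes the shares were 19.03% and 28.1% with a median of -0.12. RefSeq coding probes had a median of -0.17 and RefSeq noncoding probes of 0.18. A probe could enter this test through the row where it was brighter. Among probes well above background on all 8 astrocyte arrays, 2004 of 5088 interval probes were higher and 482 lower, with a median change of 0.44. Over all probes that setting gave 6366 higher and 7868 lower. Of the 2936 interval probes higher in row 2, 2328 (79.3%) differed by at least 2-fold, and 1944 (66.2%) were well above background on all 4 row 1 arrays. A label that would explain the rows is not given in the sources used here.

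Both slides showed the shift, at different sizes. On slide 2, the PBS astrocytes, the median difference of row 2 minus row 1 was 0.95 for interval probes, -0.15 for the other probes and -0.22 for RefSeq coding probes. On slide 3, the Klotho astrocytes, it was 0.34, -0.11 and -0.13. Of the 6699 interval probes tested, 5231 (78.1%) had the same sign on both slides. All 2936 called higher were positive on both, and all 514 called lower were negative on both. Those calls came from a fit of these same arrays, which favours probes that move alike on both slides. The agreement among called probes is therefore no separate support. Fitted by slide, slide 2 alone gave 3924 interval probes higher and 632 lower, and slide 3 alone gave 0 and 0, with 1707 at an unadjusted p of under 0.05. Over all 33036 probes tested, slide 2 alone gave 10819 higher and 10204 lower, and slide 3 alone 0 and 0. For the interaction of row and slide 0 interval probes were called, with 2078 (31.0%) at an unadjusted p of under 0.05. Over all probes 1 was called lower, and 21.7% had an unadjusted p of under 0.05. Without PBS astrocyte replicate 1 the count of interval probes lower in row 2 was 298, and 5289 over all probes.

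**Figure D5:**
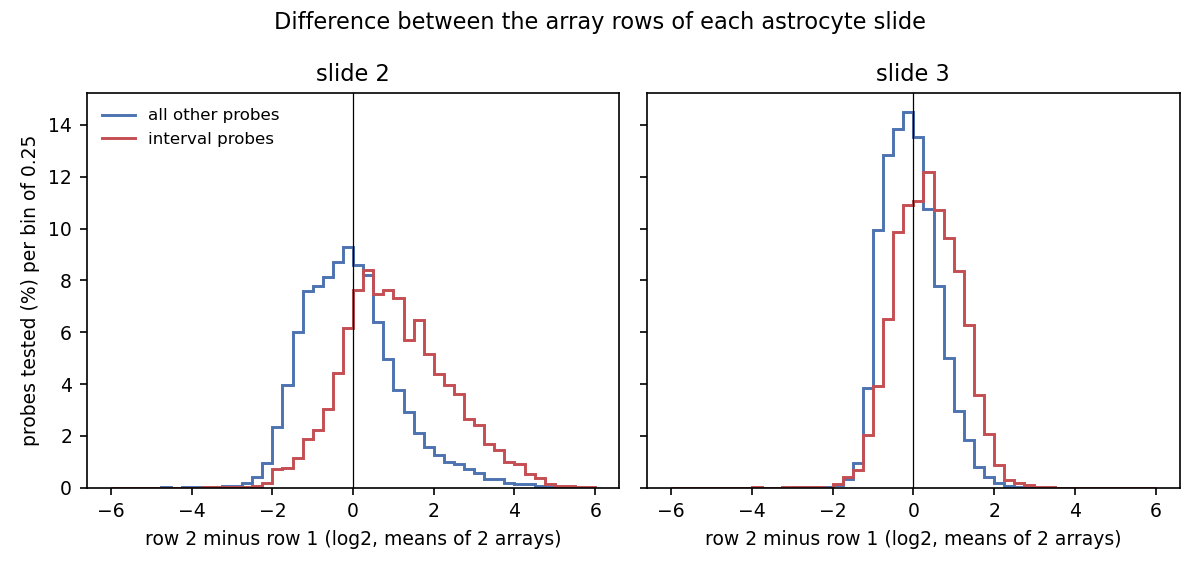
Distribution of the difference between array rows (mean of 2 row 2 arrays minus mean of 2 row 1 arrays, log2) over the probes tested, as percent of probes per bin of 0.25, on each astrocyte slide. The interval probes (red, 6699) are shifted to the right of the other probes (blue, 26337) on both slides, with medians of 0.95 and 0.34 against -0.15 and -0.11.

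The upward share depended on how the arrays were put on a common scale. Centring on the median in place of the 75th percentile gave 2007 interval probes higher and 1069 lower, so that 65.25% of the called were higher in place of 85.1%, and quantile scaling gave 2145 and 890, or 70.7%. Over all probes tested, median centring gave 4242 higher and 12134 lower, and quantile scaling 7226 and 7797. Median centring moved the median of all tested probes from 0.01 to -0.43. Relative to the median of all probes, the interval probes stood 0.64 higher under both centrings and 0.36 higher under quantile scaling. The distance was 0.25 with normexp background correction and 0.25 with no filter on dim probes. In each of 4 classes by mean intensity the interval probes had the higher median, at 0.92, 0.65, 0.68 and 0.24 from dim to bright, against 0.49, 0.23, 0.10 and -0.30 for the other probes in the same ranges. Called higher were 50.3%, 41.5%, 45.3% and 38.3% of the interval probes and 33.6%, 25.65%, 24.96% and 14.7% of the other probes. R probes had a higher median than F probes on slide 2 (1.07 against 0.77) and on slide 3 (0.43 against 0.26).

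The microglia markers gave 0 calls among 8 between the rows, with mean levels of 1.77 to 3.07 in row 1 and 2.39 to 2.91 in row 2. Of 10 astrocyte markers 3 were lower in row 2, at mean levels of 4.35 to 4.69 in row 1 and 3.95 to 4.54 in row 2. Of 8 tested neuron markers 2 were higher and 3 lower, and of 5 tested fibroblast and meninges markers 1 was higher and 3 were lower. Of 9 oligodendrocyte lineage markers 1 was higher, as was 1 of 2 tested endothelial markers. The 75th percentile of log2 intensity lay between 9.31 and 10.33 in row 1 and between 10.05 and 10.56 in row 2. The part of these differences in the row result was not tested.

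Among interval probes well above background on all 8 astrocyte arrays, the largest rises between rows were on the R strand of chromosome 16. In chr16:91187988-91188416 both R probes were higher in row 2, and A_30_P01019391 read -5.65 and -5.22 in row 1 against 0.37 and 0.08 in row 2 of slide 2, and -3.14 and -2.23 against -0.65 and -0.28 on slide 3, a change of 3.94 (SE 0.651, limma adjusted p = 0.00401). The interval lies inside chr16:91174611-91200786, whose R probe A_30_P01024527 changed by 3.90. In chr7:69117827-69127242 all 3 R probes were higher in row 2. Its probe A_30_P01023293 read -3.28 and -3.20 in row 1 against 1.00 and 0.61 in row 2 of slide 2, and -2.25 and -1.91 against 0.33 and -0.11 on slide 3, a change of 3.12 (SE 0.372, limma adjusted p = 0.00365). The neuron arrays read -2.05 to -0.96 in PBS, overlapping row 1, and -1.59 to -1.43 with Klotho, and the cell type changes of 0.18 in PBS and 0.50 in Klotho were not called.

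The largest falls between rows were smaller than the largest rises. A_30_P01024472, in chr11:35805295-35817263 on the F strand, read 4.41, 4.41, 2.02 and 2.27 on PBS astrocyte replicates 1 to 4 and 4.76, 4.23, 3.24 and 3.31 on the Klotho ones, with row 1 first. Its change was -1.74 (SE 0.248, limma adjusted p = 0.00365). All 5 F probes of chr9:14460976-14488051 were lower in row 2, with -1.73 (SE 0.202) for A_30_P01029071, and so were the 3 F probes of chr10:83185606-83225506, with -1.65 (SE 0.223) for A_30_P01032460. In each of these intervals the levels of the rows did not overlap within a slide for the named probe.

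Named long noncoding RNA genes, which the array measures with probes of their own, were followed as a list of 50, of which 30 were on the array. Between PBS astrocytes and PBS neurons 8 of 29 tested were higher and 10 lower, and in the Klotho arrays 12 and 13 of 29. Over all probes tested, 21.8% were called higher and 30.3% lower in PBS, and 27.6% and 36.0% in Klotho. Neat1, the scaffold of nuclear paraspeckles, stood at -0.38 ± 0.286 (SD, n = 4) in PBS neurons and 6.27 ± 0.963 (SD, n = 4) in PBS astrocytes, a change of 6.65 (SE 0.443, limma adjusted p = 2.88e-06). H19, an imprinted maternally expressed RNA, was higher by 3.29 in PBS astrocytes. Dlx6os1, also called Evf, which is transcribed at the Dlx5 and Dlx6 locus of interneuron progenitors, was lower, with 1 of 4 PBS astrocyte arrays well above background, and so was Tunar, an RNA of pluripotent and neural cells, which was not well above background on any of them. With Klotho, 0 of 29 were called in neurons and 0 of 26 in astrocytes. Between the astrocyte rows 14 of 26 were higher in row 2 and 3 lower, with a median change of 0.75, and among them Meg3, an imprinted maternally expressed RNA, changed by 1.23 (SE 0.212, limma adjusted p = 0.00426). Over all probes tested between the rows, 24.1% were called higher and 23.9% lower. Of RefSeq noncoding probes 27.8% were called higher and 20.0% lower, with a median change of 0.18.

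Detection and calls of interval probes differed among chromosomes, and the row comparison also differed by interval length. Chromosome 19 had the largest share of detected interval probes in PBS neurons (54.0% of 322) and chromosome 9 the smallest (34.9% of 736). On chromosome X, 6.37% of 267 tested interval probes were higher in PBS astrocytes and 37.45% lower, with a median change of -0.48, and in the Klotho arrays 12.04% of 216 were higher and 38.4% lower. Over the interval probes of all chromosomes these shares were 16.1% and 25.9% in PBS and 23.8% and 34.2% in Klotho. Interval length made little difference to detection, which was 44.3%, 44.2%, 43.3% and 42.7% in PBS neurons from the shortest to the longest of 4 classes of near-equal number. In the row comparison the shortest class, 62 to 5176 bases, had a median change of 0.96 and 50.6% of its tested probes called higher, and the other 3 classes had medians of 0.54, 0.59 and 0.59 with 39.2%, 42.4% and 42.8% called higher.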

How the data were processed

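RNA of 16 samples was hybridised to single-colour Agilent arrays of design 028005. The authors deposited Feature Extraction 12.0.3.1 output per array, per the file headers, which name build mm9. The intensity used, the processed signal, was deposited after the scanner software's background subtraction. The deposited value table holds a score per probe, which by its values is the log2 processed signal of an array scaled by the authors to mean 0 and SD 1, and it equals such scores of the scanner signals to within 0.00502. The log2 scale used here was computed from the deposited intensity and is not that of the table.

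Signals were log2-transformed, centred on each array's 75th percentile (control spots left out) and tested with limma 3.58.1 in R 4.3.3 (lmFit, eBayes), with Benjamini-Hochberg adjustment over all probes tested and a threshold of 0.05. A probe entered a test when the scanner's flag put it well above background on all 4 arrays of either group (or row) compared. Normexp (offset 50) was run on median signals, because the files hold no mean signal. Precision rests on the number of arrays. Python 3.11.15 made the counts.

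Named probes are those with the largest changes (10 per direction, above background on all 8 arrays), the largest bounds (5), the smallest p where under 5 were called, 10 intervals with opposite strands and the 5 brightest per group. Parts of the rule that need coordinates of gene probes could not be applied. Gene symbols were assigned by matching the accession that names a probe to RefSeq transcripts. Of the 55681 non-control probes, 28325 (50.87%) have a symbol, and the brightest probe stands for a gene. The members and lists were chosen with earlier results of these data known. Same-numbered arrays deviated together within neurons (correlations 0.16 to 0.766 over the 4 numbers) and within astrocytes (0.174 to 0.725). Between cell types the correlations ran from -0.147 to 0.267 in PBS and from -0.0949 to 0.00579 in Klotho. Same-numbered arrays share the array column in neurons, and the row and column in astrocytes. Within a cell type, a shared culture and a shared position therefore cannot be told apart. Alternatives covered scaling, background, filters, the value table, left-out replicates, the replicate block, array rows and slides.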

Additional observations from a re-analysis of the deposited data

Results flagged for a closer look

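The values of 4 arrays in each group were checked for the named probes, 88 groups in all, and 4 held an array far from the other 3 relative to their range, where chance alone marks about 1 in 20 groups. Probe A_30_P01020154 (chr9:51905865-51911474, F strand) stood at 3.54 on PBS neuron replicate 1, above 2.66 to 2.75 on the others. Probe A_30_P01024527 (chr16:91174611-91200786, R strand) stood at -7.02 on PBS neuron replicate 1, where the others read -4.08 to -3.54, and at -5.68 on Klotho neuron replicate 1, where the others read -3.79 to -3.50. Probe A_30_P01023008 (chr15:12119755-12127230, F strand) stood at -2.5 on Klotho neuron replicate 3, above -4.95 to -4.56 on the others.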

How the results depend on the processing

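Of 2125 values recomputed for the named called probes, 2068 kept their direction and their side of the threshold, 57 lost the call and none reversed. For Klotho in neurons, no filter on dim probes gave 3064 interval probes higher and 68 lower, the deposited scores 3 lower and the replicate block 1 lower, and leaving out a replicate gave 0 to 2 in each direction. Over all probes, no filter gave 7501 higher and 260 lower, the deposited scores 69 lower and the replicate block 25 lower. For Klotho in astrocytes, leaving out a replicate gave 0 to 1 higher and 0 lower. For astrocytes against neurons in PBS, leaving out a replicate gave 1018 to 1461 higher, 1610 to 2182 lower and 35 to 61 intervals with opposite strands. In the Klotho arrays it gave 1297 to 2163 higher and 1896 to 2323 lower. Requiring signal on all 8 arrays gave 1165 lower in PBS, 892 higher in Klotho and 33 opposite intervals. Row 1 astrocytes alone gave 3790 lower in PBS and 92 opposite intervals, and row 2 alone 3389 higher in PBS, 2509 higher in Klotho and 113 opposite intervals. The replicate block gave 1218 higher and 1770 lower in PBS, 1416 and 1990 in Klotho, and 48 opposite intervals. No label pairs the arrays of the cell types by number. The block changed no other call count by over 1.5 times. For the astrocyte rows, median centring gave 1069 lower, quantile scaling 890 lower, normexp 1580 higher, slide 3 alone 0 and 0, and leaving out a replicate 1963 to 3382 higher and 298 to 661 lower, the lowest without PBS astrocyte replicate 1. Over all probes, median centring gave 12134 lower, quantile scaling 7797 lower and normexp 5053 higher between the rows. Detection on at least 3 arrays gave 48.5%, 37.0%, 41.9% and 39.9% in PBS neurons, Klotho neurons, PBS astrocytes and Klotho astrocytes, and on at least 1 array 57.0%, 48.5%, 59.5% and 55.6%. Detected on both strands on at least 1 array were 700 intervals in Klotho neurons, 834 in PBS astrocytes and 782 in Klotho astrocytes. Dim probes limit these results, since 8535 of the 16181 interval probes (52.75%) were detected in no group.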
